A study of Mus musculus with 12 samples.

Results

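The WT-only gained regions are 368 stretches of open chromatin in mouse splenic natural killer (NK) cells, out of 51701 regions in all. Each was among the strongest peaks of none of the 3 knockout stimulated libraries and all 3 wild-type stimulated libraries, and of at most 1 of the 3 knockout control libraries and none of the 3 wild-type control libraries. "Strongest" means the distinct peak intervals of a library with the highest deposited −log10 q, taken down to the same number in every library, the length of the shortest list (KO stimulated replicate 1). A region was called in a library when 1 such interval overlapped it by at least 1 bp. The regions were chosen by the calls of all 12 libraries, so their calls, ranks, folds and widths are descriptions and carry no test. The name states the rule and not the absence of signal in knockout cells, since 233 of the 368 regions (63.3%) held a weaker deposited peak in at least 1 knockout stimulated library. For 197 of the 233 that was knockout stimulated replicate 3 alone, a library whose list holds a weaker peak at 56.9% of all regions it did not call, and without it the share was 13.0% of the 871 regions then meeting the rule.

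The study profiled accessible chromatin by ATAC-seq in splenic NK cells, with equal cell numbers per library, to see how loss of Regnase-1 alters the accessible genome at rest and under cytokines. Knockout (KO) cells had Regnase-1 deleted in NK cells (Reg-1ΔNK), and wild-type (WT) cells carried the floxed, undeleted allele (Reg-1fl/fl). The 4 groups were KO stimulated, WT stimulated, KO control and WT control, with 3 libraries each, where stimulated cells received IL-12 and IL-18 and controls did not. The labels give no cytokine dose or duration, do not name the Cre driver of the deletion, and do not say whether the 3 libraries of a group came from separate animals, so the spread between them may be technical.

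ATAC-seq uses a transposase that cuts exposed DNA, so that promoters, enhancers and other regulatory elements appear as peaks. IL-12 and IL-18 signal through STAT and NF-kB factors and together drive NK cells to produce interferon gamma. Zc3h12a encodes Regnase-1, an RNA-cutting enzyme that limits inflammation by destroying the transcripts of cytokines and other immune genes.

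Besides the shortest list, that of KO stimulated replicate 1, the full lists held 42543 and 54303 distinct intervals in KO stimulated replicates 2 and 3, 56434, 55146 and 63128 in WT stimulated cells, 53258, 46971 and 52502 in KO control cells, and 42520, 48324 and 53440 in WT control cells. The KO stimulated lists were all shorter than the WT stimulated lists, with a difference in means of −14251 (exact two-sided permutation p = 0.1, the smallest that 3 against 3 allows). Total read depth is unknown. Read from the step size of low folds, and assuming that the caller adds 1 to pileup and background, mean background coverage per base was lowest in KO stimulated replicate 1 at 1.80, while the remaining libraries ranged from 2.84 to 4.36. At the last interval used, the deposited −log10 q was 1.31, 4.598 and 13.2 in KO stimulated, 16.6, 17.3 and 27.05 in WT stimulated, 10.1, 8.84 and 13.6 in KO control and 5.76, 12.9 and 15.9 in WT control libraries, so that the same rank stands for very different strengths, and KO stimulated replicate 1 stood apart. Genes of the NK marker list had a called peak in 8 of 8 cases in every library, against 2 of 5 B cell, 2 to 3 of 5 T cell, 3 of 7 myeloid and 1 of 5 erythroid marker genes. No library had a called peak at Ms4a1, Cd3g, Cd8a, Lyz2 or Csf1r. Called peaks were present in all 12 libraries at Pax5, Cd79a, Cd3e, Cd3d, Spi1, Itgam, Cd14 and Klf1. These marker counts differ from those by nearest gene, where 7 NK, 1 B cell, 2 T cell, 4 myeloid and 2 erythroid marker genes had any region. At Zc3h12a itself the single region, chr4:125121945-125128930, was called in 12 of 12 libraries, and a merged region of that length does not check the deletion.

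Of the WT-only regions, 4 overlapped a RefSeq promoter window (250 bases before to 50 after a transcription start), and 2 of these had their WT stimulated summits inside the window. Those 2 promoters are shown because they are the places where a gained summit and a gene start coincide. The sequences are from RefSeq, build GRCm38.p6, which underlies mm10; capitals mark matches to the AP-1 word TGANTCA (both genes) and, in Scel, also to the NF-kB consensus, searched on both strands.
Clec2h: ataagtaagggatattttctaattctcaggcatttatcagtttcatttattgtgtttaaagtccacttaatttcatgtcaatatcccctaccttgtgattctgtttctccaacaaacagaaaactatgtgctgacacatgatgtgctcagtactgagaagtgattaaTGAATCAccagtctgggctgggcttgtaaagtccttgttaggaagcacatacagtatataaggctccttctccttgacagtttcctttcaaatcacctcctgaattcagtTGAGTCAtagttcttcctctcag
Scel: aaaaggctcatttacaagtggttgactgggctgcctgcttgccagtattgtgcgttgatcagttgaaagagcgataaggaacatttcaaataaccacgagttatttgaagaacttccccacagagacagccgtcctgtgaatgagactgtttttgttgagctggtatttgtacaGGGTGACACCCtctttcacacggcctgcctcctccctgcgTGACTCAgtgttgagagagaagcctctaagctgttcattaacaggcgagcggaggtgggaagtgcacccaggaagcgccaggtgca
The Clec2h window is chr6:128662135-128662434 and the Scel window chr14:103513091-103513390, both on the plus strand.

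Clec2h encodes a C-type lectin of the NK gene complex, and its 3 WT stimulated summits lay at −7, −8 and 4 bases from the start. Its promoter held 2 AP-1 words, 83 bases before and 28 bases after the start. The Clec2h region also had weaker deposited peaks in 2 KO stimulated, 2 KO control and 2 WT control libraries. At Scel, which encodes the epithelial cornified-envelope protein sciellin, the summits lay at 5, −26 and −10 bases, next to an AP-1 word at −36 and 2 NF-kB matches at −76 and −75 that overlap each other on opposite strands. The Scel region had a weakest WT stimulated rank of 34766, near the end of the list used. It also had deposited peaks in 1 KO stimulated, 1 KO control and 1 WT control library. Among all 32851 RefSeq promoters the AP-1 word was found in 7.81% and the NF-kB consensus in 50.8%. The other searched words were STAT TTCNNNGAA (8.30% of all promoters), the IRF consensus (3.44%), octamer ATGCAAAT (1.74%), RUNX TGTGGT (16.8%), T-box AGGTGTGA (1.28%), ETS CCGGAAGT (3.89%) and CTCF CCACTAGG (0.773%). The other 2 overlapped promoters were those of 4930415O20Rik, with 1 STAT word, and Gm12708, with 1 RUNX word, and their summits lay 225 to 229 and 52 to 66 bases after the start.

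With stimulation 2326 regions were newly called in KO cells (4.5% of all regions; 3 of 3 stimulated libraries call them, and 0 of 3 controls do) and 4232 in WT cells (8.19%). The WT-only rule kept 368 (0.712%), its mirror image, regions gained in KO and not in WT, kept 196 (0.379%), and both genotypes gained 1889 (3.65%). Set side by side without regard to the controls, 760 regions were called in 0 of 3 KO stimulated and 3 of 3 WT stimulated libraries (1.47%) and 453 in 3 of 3 KO stimulated and 0 of 3 WT stimulated libraries (0.876%).

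The WT-only regions are the far end of a gradient. Of the 4232 regions gained in WT, 2278 (53.8%) were called in all 3 KO stimulated libraries, 912 (21.6%) in 2, 668 (15.8%) in 1 and 374 (8.84%) in 0. Of those 374, KO control libraries called 358 in none, 10 in 1, 4 in 2 and 2 in all 3, which leaves the 368. Where a single KO stimulated library called a region gained in WT, it was replicate 3 in 518 of 668 cases, replicate 1 in 104 and replicate 2 in 46.

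How strong a region was in WT cells moved with how many KO libraries called it. Among regions gained in WT whose weakest WT stimulated rank was 20000 or better, 0 of 842 went uncalled in all 3 KO stimulated libraries (upper 95% Wilson limit 0.454%; intervals over regions here cover counting error alone). The share was 10 of 854 (1.17%) at ranks 20001 to 25000, 73 of 1132 (6.45%) at 25001 to 30000 and 291 of 1404 (20.7%, 18.7 to 22.9%) from 30001 on. Calls in all 3 KO stimulated libraries were made at 87.9%, 68.6%, 46.6% and 30.3% of the regions in the same 4 ranges. The WT-only regions had a median weakest rank of 32756.5 (21240 to 35105), against 23706 in the regions gained in both genotypes, so they sat close to the list's end in WT cells too.

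**Figure D1:**
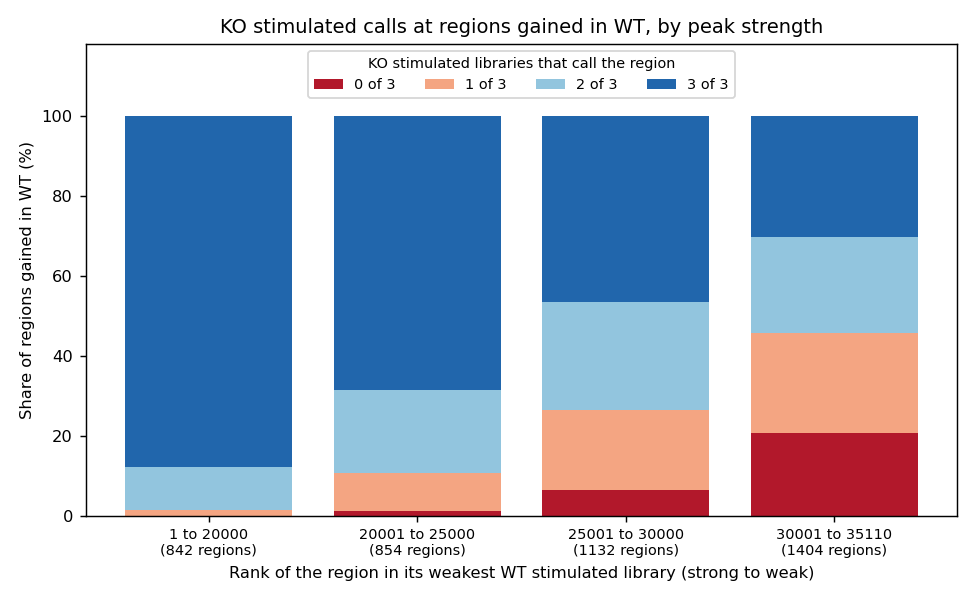
Regions gained in WT, split on the x axis by their rank in the weakest WT stimulated library, with the share (%) called in 0, 1, 2 or 3 KO stimulated libraries on the y axis. The share called in 0 KO stimulated libraries was 0% among the strongest regions and 20.7% among the weakest.

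In WT stimulated replicates 1, 2 and 3 the regions had median ranks of 28688, 30514 and 30483 and median deposited folds of 9.69, 8.26 and 10.4 over their own library's background. Folds ran from 7.18 to 19.4, from 6.69 to 14.9 and from 8.39 to 18.1. The 3 WT stimulated summits of a region lay within a median span of 17 bp, and within 100 bp in 358 of 368 regions (97.3%), against a median of 21 bp and a share of 92.1% in the regions gained in both genotypes. The sets differ in median width (551 against 992 bp), and spans were not compared at equal width.

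The full deposited lists showed how far below the threshold the KO peaks were. A weaker peak was listed at 0, 36 and 228 of the 368 regions in KO stimulated replicates 1, 2 and 3. Any peak was listed at 49, 27 and 49 regions in KO control libraries (6, 2 and 2 of them called) and at 21, 50 and 70 in WT control libraries. KO stimulated replicate 3 stood apart from the other 8 libraries outside the WT stimulated group. Replicate 1 could hold no weaker peak because its whole list was used. In KO stimulated replicate 3 a weaker peak was thus listed at 62.0% of the WT-only regions, against 56.9% of all regions that it did not call. Over all uncalled regions the share was 0% and 19.53% in KO stimulated replicates 1 and 2, 33.1 to 49.1% in KO control and 20.9 to 48.5% in WT control libraries.

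**Figure D2:**
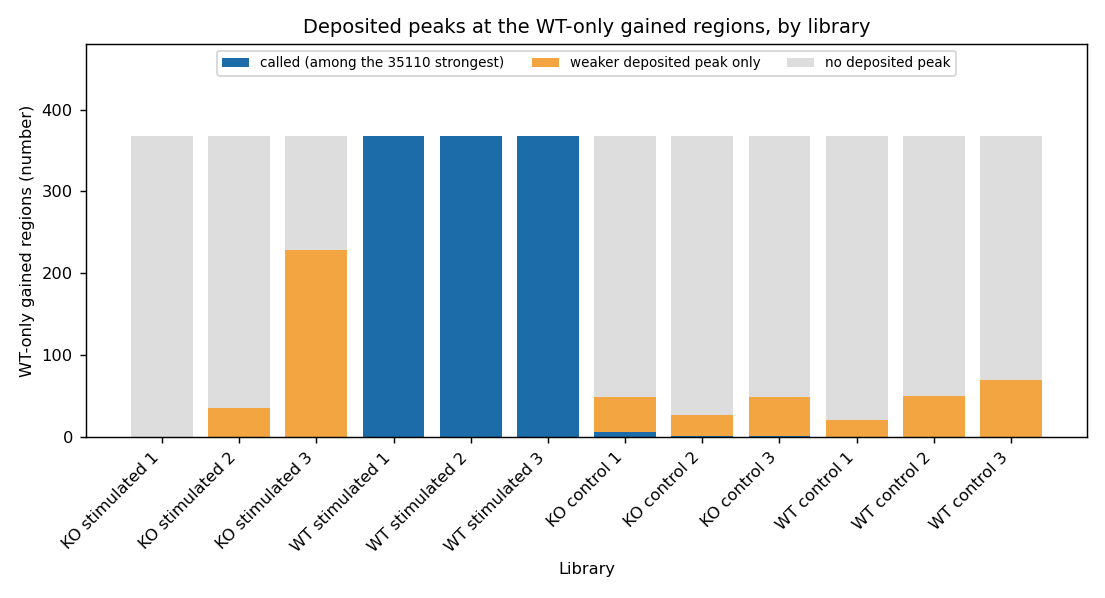
Number of the 368 WT-only gained regions (y axis) that were called, held a weaker deposited peak or held no deposited peak in each of the 12 libraries (x axis). KO stimulated replicate 3 listed a weaker peak at 228 regions, KO stimulated replicates 1 and 2 at 0 and 36.

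By region, 135 (36.7%, 31.9 to 41.7%) had no deposited peak in any KO stimulated library, 202 had one in 1 library, 31 in 2 and 0 in all 3. For 197 regions (53.5%) the single KO stimulated peak was that of replicate 3. Of the 228 weaker peaks in replicate 3, 135 (59.2%) ranked within 5000 places of the threshold, with a median rank of 39200 and a median fold of 5.16. Their summits lay at a median of 15.5 bp from the median WT stimulated summit and within 100 bp in 221 of 228 cases (96.9%), so most KO peaks lay where the WT peaks did. No deposited peak was listed in any of the 9 libraries outside the WT stimulated group at 104 regions (28.3%, 23.9 to 33.1%), and 117 regions (31.8%) had one in at least 1 control library. Of the 196 mirror regions, 184 (93.9%) had a deposited peak in at least 1 WT stimulated library and 151 (77.0%) in all 3, in lists that were longer. Singly, WT stimulated replicates 1, 2 and 3 listed a weaker peak at 84.2%, 83.2% and 91.3% of the mirror regions. Over all regions that each did not call, the shares were 61.48%, 61.45% and 76.1%.

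To read a library whose calls had no part in the choice, each library was left out in turn and the rule applied to the other 11. The list length stayed that of KO stimulated replicate 1, also where this library was left out. Left-out KO stimulated replicates 1, 2 and 3 called 21.9% of 471, 10.7% of 412 and 57.7% of 871 such regions. By the rule these are regions gained in WT that no KO stimulated library but the left-out one called. They were largely counted above and are not a separate reading. Left-out WT stimulated replicates 1, 2 and 3 called 74.4% of 500, 71.5% of 515 and 69.7% of 531. Left-out KO control libraries called 1.08 to 2.43% and WT control libraries 3.41 to 5.64%. Across all regions a left-out library called 62.5 to 66.5%. At these 871 regions, which neither of its companions called, KO stimulated replicate 3 called 57.7% (54.4 to 61.0%), against 65.5% of all regions. The lowest WT stimulated share, 69.7% (65.6 to 73.4%), was read over a different set of regions. The intervals cover counting error over regions alone and do not compare libraries.

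**Figure D3:**
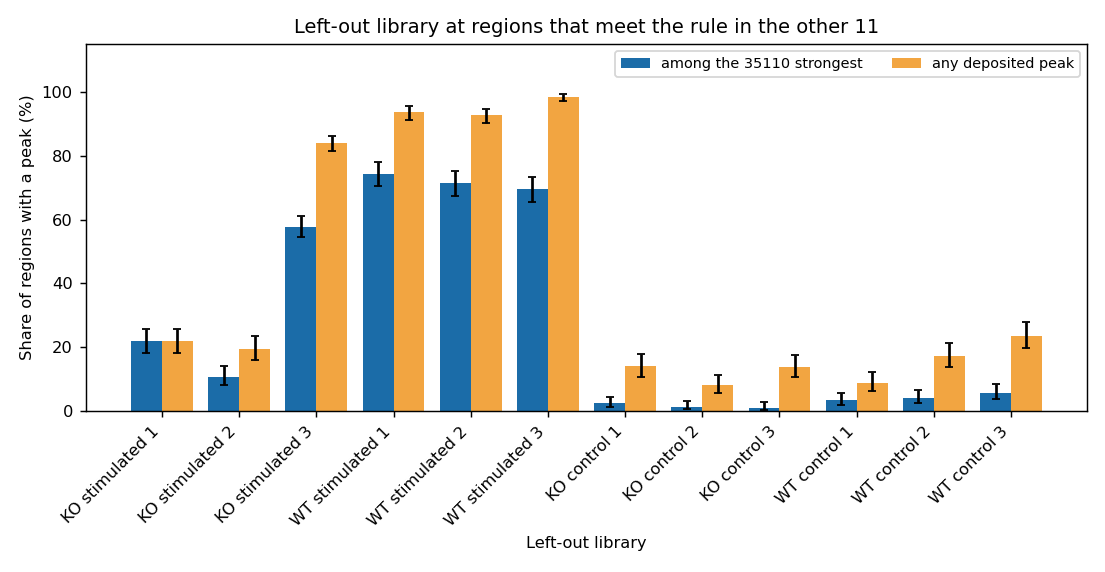
For each left-out library (x axis), the share (%) of regions meeting the rule in the other 11 libraries that the left-out library called or held with any deposited peak, with 95% Wilson intervals over regions. KO stimulated replicate 3 called 57.7%, KO stimulated replicates 1 and 2 called 21.9% and 10.7%, and WT stimulated libraries 69.7 to 74.4%.

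The regions lay mostly away from promoters. Of the 368, 18 (4.89%, 3.12 to 7.60%) came within 1 kb of an end of a protein-coding gene, against 4.76% of the regions gained in both genotypes and 25.04% of all regions. A RefSeq transcription start was within 1 kb of 7 regions (1.90%), against 3.71% and 21.9%. Inside a gene body and over 1 kb from any gene end were 172 regions (46.7%), outside genes but within 50 kb of one were 126 (34.2%), and over 50 kb from any protein-coding gene were 57 (15.5%). Among the regions gained in both genotypes the last 3 classes held 49.1%, 31.3% and 16.5%. They were narrower, with a median width of 551 bp (range 234 to 2637) against 992 bp in the regions gained in both and 929 bp in the 1187 of those within the same range of ranks. Width depends on peak strength and on how many libraries are merged, and was part of the rule's own data.

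A region called in all 12 libraries lay within 10 kb of 177 WT-only regions (48.1%), against 40.3% of the regions gained in both and 42.1% of all regions. A region gained in both genotypes lay within 10 kb of 20 (5.43%), against 4.61% of all regions. Another WT-only region lay within 50 kb of 18 (4.89%), against 5.29% of the regions gained in both and 3.96% of all regions. Non-coding genes of the annotation overlapped 57 regions. By chromosome, the number per 1000 regions ran from 11.3 on chromosome 14 to 4.59 on chromosome 17, with 5 regions on X and 0 on Y. A microRNA hairpin lay within 10 kb of 5 regions, the nearest being Mir6977 at 256 bp and Mir7686 at 305 bp. No share over all regions is given for the non-coding and microRNA counts, so neither can be read as high or low.

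A protein-coding gene was within 50 kb of 311 of the regions, giving 302 distinct nearest genes of 14825 with any region (2.04%). One region each belonged to 294 genes, 7 genes had 2 (Armc9, Car2, Creb5, Dusp22, Erich6b, Prkar1b and Thsd7b) and Bach2 had 3. Of the 302 genes, 66 (21.9%) also had a region gained in both genotypes, a share that was 8.79% among all genes with a region. The 302 genes had more regions apiece. Counted by region, 5.01% of their other regions were gained in both, against 3.68% of all regions that were not WT-only. Seen from the other side, the 66 genes were 5.07% of the 1303 genes with a region gained in both. For 190 of the 302 genes the WT-only regions were the sole ones gained in WT.

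The strongest regions with a gene within 50 kb, ordered by their weakest WT stimulated rank, included those nearest to Kctd14, Thsd7b, Gfi1, Elovl5, Dusp22, Cblb, Apbb1ip, Cass4, Ramp3, Grap2, Crtap, Itga2, Etnk1, Pomp, Exoc2, Fyb, Bach2, Mctp2 and Tnfsf15. Their known roles are mixed. Cblb is a ubiquitin ligase that restrains T and NK cell activation. Grap2 and Fyb are adaptors of antigen-receptor signalling. Apbb1ip and Cass4 belong to integrin and adhesion signalling, and Itga2 is the integrin subunit recognised by the DX5 antibody used to mark mouse NK cells. Elovl5 elongates fatty acids, Pomp helps to assemble the proteasome, Exoc2 is a subunit of the exocyst and Crtap takes part in collagen modification.

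The Cblb region, chr16:51989101-51989579, 41.7 kb from the gene, had deposited folds of 12.4, 12.2 and 15.1 in the WT stimulated libraries and no deposited peak in the KO stimulated, KO control or WT control libraries. The Ramp3 region, chr11:6698189-6698589, with folds of 15.8, 14.7 and 13.8, and the Grap2 region, chr15:80592782-80593068, inside the gene body, with 15.5, 12.4 and 13.8, were likewise without a peak in the other 9 libraries. So were the regions at Tnfsf15, chr4:63717111-63717792, which encodes the cytokine TL1A, with folds of 10.8, 11.4 and 13.4, and at Adgrl2, chr3:149206262-149206675, 217 kb away, with 15.8, 10.4 and 16.0. These 5 were the strongest of the 104 regions with no peak elsewhere.

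Other strong regions had weaker KO stimulated peaks. The Gfi1 region, chr5:107731198-107731963, lay 5.39 kb from this gene for a zinc-finger repressor of blood cell differentiation. It had no peak in KO stimulated replicate 1 and folds of 3.41 and 4.51 in KO stimulated replicates 2 and 3, against 13.2, 14.9 and 16.2 in WT stimulated cells, no peak in KO control cells, and 2.75 and 3.03 in WT control replicates 2 and 3. The Itga2 region, chr13:114933468-114933937, 1.37 kb from the gene, had a fold of 4.51 in KO stimulated replicate 3 alone among the KO libraries, against 12.2, 11.01 and 14.0 in WT stimulated cells, and no control peak. The Dusp22 region, chr13:30650631-30651491, reached a fold of 6.02 in KO stimulated replicate 3, against 14.6, 11.8 and 15.3 in WT stimulated cells. A fold is relative to each library's own background and is not a height comparable between libraries.

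**Figure D4:**
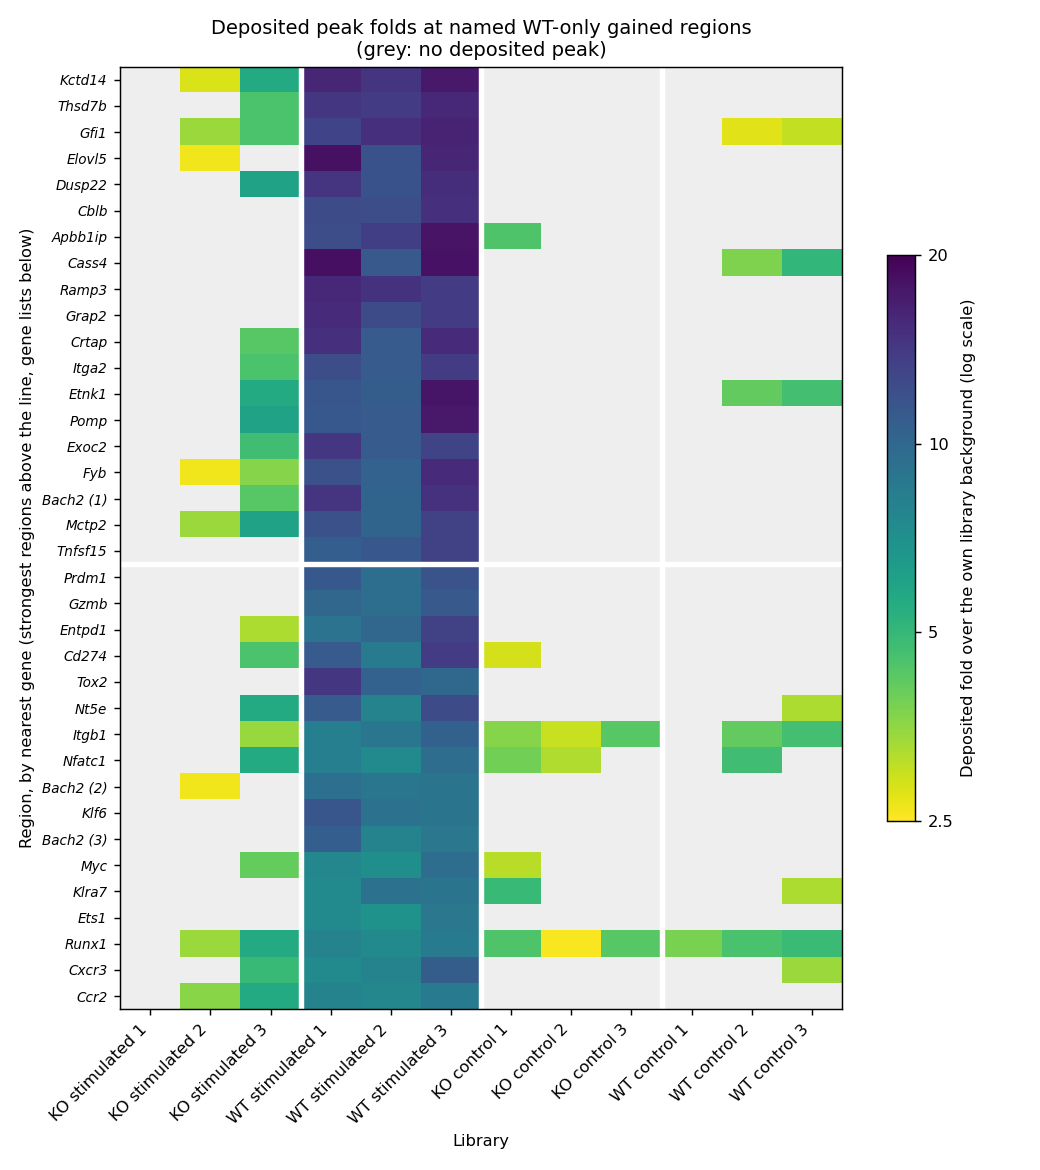
Deposited peak fold over the library's own background (colour, log scale) at named WT-only gained regions (rows, by nearest gene) in the 12 libraries (columns); grey means no deposited peak. All rows are filled in the 3 WT stimulated columns, while the KO stimulated columns are filled mainly in replicate 3 and none in replicate 1.

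Near genes of 19 lists of NK cell biology, cell type markers and ubiquitous genes, 17 of 319 listed genes with any region (5.33%) had a WT-only region, against 2.04% of all genes. These genes also had regions gained in both genotypes at a higher share, 21.3% against 8.79%, and more regions apiece. Counted by region, 0.9495% of the listed genes' regions and 0.661% of all regions near genes were WT-only. No test was made of these shares.

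Among lymphocyte transcription factors, the list with most genes, 6 of 47 had WT-only regions (12.8%), against 19 with regions gained in both genotypes. The share over all genes was 2.04%. Counted by region, 1.18% of the regions of this list were WT-only, against 0.661% of all regions near genes. The 6 genes were Prdm1, which encodes the repressor BLIMP-1 of terminal differentiation, Runx1, Ets1, Tox2, Klf6 and Nfatc1. The Prdm1 region, chr10:44462343-44462827, inside the gene body, had folds of 11.2, 9.44 and 11.75 in the WT stimulated libraries and no deposited peak elsewhere. The 17 other regions of Prdm1 were called in 13, 12 and 13 cases in the KO stimulated libraries, 12, 12 and 13 in WT stimulated libraries, 9, 9 and 10 in KO control libraries and 8, 8 and 8 in WT control libraries, so the KO and WT stimulated counts overlapped. The Klf6, Tox2 and Ets1 regions also had no peak outside WT stimulated cells. The Nfatc1 region had weaker peaks in KO stimulated replicate 3 (fold 5.59), in KO control replicates 1 and 2 and in WT control replicate 2. The Runx1 region, chr16:92783411-92784142, had weaker peaks in KO stimulated replicates 2 and 3 (folds 3.41 and 5.59) and in all 6 control libraries (2.56 to 4.84), against 7.89, 7.47 and 8.58 in WT stimulated cells.

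Checkpoint and costimulation genes had WT-only regions at 3 of 16 genes (18.75%), against 5 with a region gained in both and 2.04% of all genes. Counted by region the share was 2.88%, against 0.661% of all regions near genes. Entpd1 and Nt5e encode CD39 and CD73, the ectoenzymes that convert extracellular ATP to adenosine in sequence, and Cd274 encodes the ligand PD-L1. The Cd274 region, chr19:29368821-29369381, had its summit 1.64 kb after the start. Its folds were 4.51 in KO stimulated replicate 3 with no peak in replicates 1 and 2, against 11.005, 8.45 and 13.8 in WT stimulated cells, 2.86 in KO control replicate 1 alone and no peak in WT control cells. The 3 other regions of Cd274 were called in 3, 3 and 3 cases in KO stimulated and 3, 3 and 3 in WT stimulated libraries, against 1, 2 and 1 in KO control and 1, 1 and 1 in WT control libraries. The Entpd1 and Nt5e regions each had a weaker peak in KO stimulated replicate 3 (folds 3.22 and 5.59) and none in replicates 1 and 2.

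Homing and adhesion genes had 4 of 23 (17.4%), against 6 with a region gained in both and 2.04% of all genes. Counted by region the share was 2.78%, against 0.661% of all regions near genes. The 4 were the chemokine receptors Ccr2 and Cxcr3, and the integrin subunits Itga2 and Itgb1, which pair as a collagen receptor. All 4 had a weaker peak in KO stimulated replicate 3, with folds of 5.59 at Ccr2, 4.94 at Cxcr3, 4.51 at Itga2 and 3.44 at Itgb1. The Ccr2 region lay at the threshold, with a weakest WT stimulated rank of 35057 and rank 35380 (fold 3.62) in KO stimulated replicate 2. Weakest ranks near the list's end were also those of Cxcr3 (34782), Runx1 (34687), Ets1 (34584), Klra7 (34322) and Myc (34177). At Itgb1 control peaks had folds of 3.64, 2.99 and 4.30 in KO control cells and 4.13 and 4.64 in WT control replicates 2 and 3. Cxcr3 had one in WT control replicate 3 (3.43). Of cytotoxic granule genes, 1 of 17 had a WT-only region, Gzmb, which encodes the protease granzyme B. The Gzmb region, chr14:56271540-56272195, 9.21 kb from the gene, had folds of 10.05, 9.44 and 11.2 in the WT stimulated libraries and no deposited peak in the other 9. The 9 other Gzmb regions were called in 7, 9 and 9 cases in KO stimulated, 9, 9 and 9 in WT stimulated libraries, 9, 9 and 9 in KO control libraries and 8, 9 and 9 in WT control libraries. Of NK receptor genes, 1 of 32 had one, Klra7, a Ly49 receptor gene with near-identical neighbours, where peak placement is uncertain. Of growth genes, 1 of 27 had one, Myc.

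No WT-only region was assigned to the 22 cytokine and chemokine genes, 21 cytokine receptors, 18 JAK-STAT genes, 26 NF-kB genes, 15 RNA decay genes and reported Regnase-1 targets, 22 interferon-stimulated genes or 12 ubiquitous genes that had any region. The share over all genes was 2.04%, at which lists of this size hold few or none, and the cytokine list did not include Tnfsf15. Regions gained in both genotypes lay at 5, 3, 3, 5, 2, 3 and 2 genes of these 7 lists. The NK, B cell, T cell, myeloid and erythroid marker lists had no WT-only region either.

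Bach2, a leucine-zipper repressor that restrains lymphocyte effector programmes, was the single gene of the 15 in the AP-1 and BATF family list with a WT-only region. It had 27 regions, of which 3 were WT-only, 1 gained in both genotypes and 11 called in all 12 libraries. The region chr4:32393187-32393593 had a fold of 4.30 in KO stimulated replicate 3, against 14.6, 10.2 and 14.9 in WT stimulated cells. The region chr4:32261383-32262117 had a fold of 2.61 in KO stimulated replicate 2, against 9.33, 8.85 and 8.95 in WT stimulated cells. The region chr4:32366239-32366542 had no peak outside WT stimulated cells, where its folds were 10.8, 7.86 and 8.77. None of the 3 had a control peak. Without these 3, Bach2 regions were called in 16, 17 and 19 cases in KO stimulated, 17, 19 and 18 in WT stimulated libraries, 19, 17 and 19 in KO control libraries and 18, 17 and 17 in WT control libraries, and the groups overlapped.

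**Figure D5:**
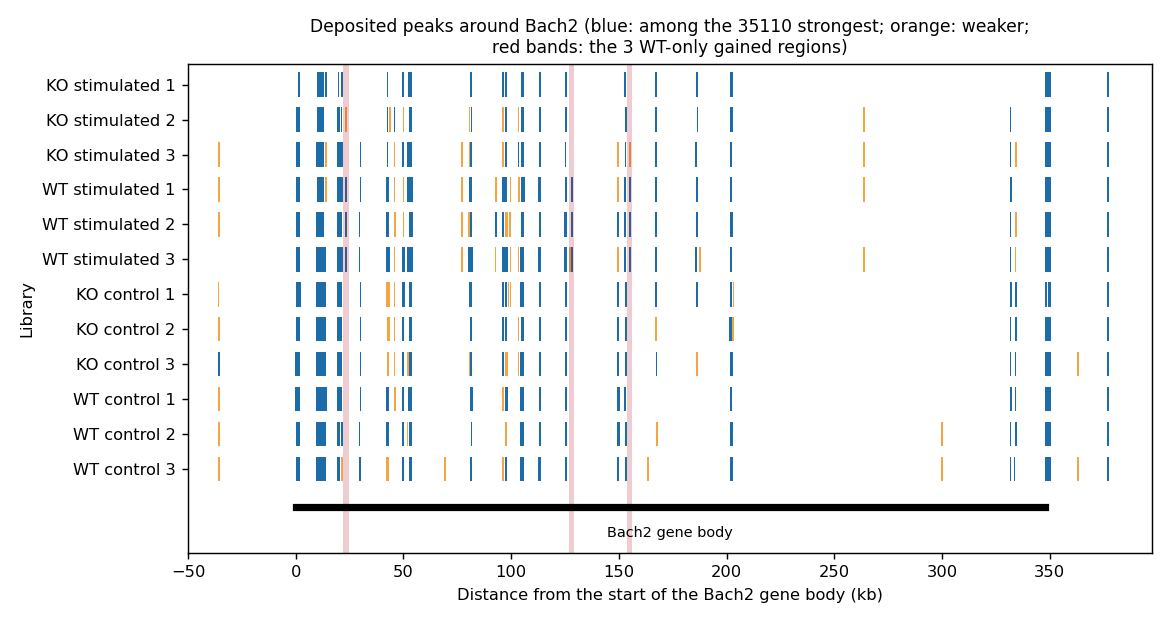
Deposited peaks in each library (rows) by distance from the lower-coordinate end of the Bach2 gene body (x axis, kb), in blue among the strongest, called intervals and in orange when weaker, with red bands at the 3 WT-only regions. In the bands the 3 WT stimulated rows hold strong peaks, and KO stimulated replicates 2 and 3 hold 1 weaker peak each.

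Among the genes with 2, Prkar1b, a regulatory subunit of protein kinase A, was picked after its values were seen. Its 16 other regions were called in 10, 11 and 10 cases in KO stimulated, 14, 14 and 14 in WT stimulated libraries, 9, 9 and 11 in KO control libraries and 10, 10 and 10 in WT control libraries, so WT stimulated cells were higher in all 3 libraries also without the WT-only regions. At Klf6 the 7 other regions were called in 3, 3 and 4 cases in KO stimulated, 5, 5 and 6 in WT stimulated and 5, 3 and 5 in KO control libraries. How many of the 302 genes separate the stimulated groups in this way was not counted. Over all 302 genes the 1975 other regions were called at a mean of 64.4% ± 2.02 in KO stimulated, 68.5% ± 0.878 in WT stimulated libraries, 61.6% ± 0.211 in KO control libraries and 62.5% ± 1.31 in WT control libraries (SD, n = 3), against 65.1%, 65.9%, 65.8% and 66.3% of all regions that were not WT-only. Within 10 kb of a WT-only region the 535 other regions were called at 69.7%, 74.6%, 66.2% and 67.4% in the same 4 groups.

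Some regions beyond 50 kb, named after their values were seen, lay nearest to known regulators. Satb1, a chromatin organiser of lymphocytes, had one 70.4 kb away, chr17:51903735-51904570, with a fold of 3.87 in KO stimulated replicate 3, against 19.4, 11.99 and 15.1 in WT stimulated cells. The widest region, chr15:62144907-62147543, lay in the non-coding gene Pvt1, 155 kb from Myc, with no KO stimulated peak, folds of 11.7, 10.8 and 13.2 in WT stimulated cells and a called peak in KO control replicate 3 (fold 6.64). The region nearest to Zc3h12a itself, chr4:125198527-125199248, lay 70.6 kb away, with a fold of 5.16 in KO stimulated replicate 3, against 12.4, 7.08 and 8.95 in WT stimulated cells, and no control peak. A region nearest to Tnfaip3, the NF-kB inhibitor A20, lay 161 kb away at chr10:19176321-19176899. Other listed genes with a WT-only region beyond 50 kb were Zc3h12c, Ets1, Nfatc1, Syk, Jun, Runx1, Mki67, Maf, Id2 and S1pr1. Around Irf4, an activation-induced transcription factor also named after the values were seen, 3 of the 50 regions within 200 kb were WT-only. All 3 were nearer to Dusp22 or Exoc2, and 8 of the 50 were gained in both genotypes. Over all regions the shares were 0.712% and 3.65%. Windows of 500 kb with 3 WT-only regions also began at regions nearest to Zc3h13, Clic6, Bach2, Gfi1 and Ets1.

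At the threshold the values on both sides were close. The 3 regions just inside by WT stimulated rank were those nearest Ints13, Specc1 and Kdm8, with weakest ranks of 35105, 35104 and 35077. The 3 regions missed by the least were nearest Cwc25, Rhpn2 and Mctp2, at 35118, 35121 and 35133. On the KO side, regions at Smap2, Nkain1 and Sorcs2 were kept with best KO stimulated ranks of 35143, 35148 and 35181, and regions at Rrbp1, Trit1 and Rasal2 were left out at 35062, 35020 and 34995.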

How the data were processed

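ATAC-seq peak lists of 12 libraries (4 groups of 3, grouped and numbered by the sample titles) were used. The authors deposited 1 narrowPeak list per library. MACS2 2.1.1.20160309, deepTools 3.4.2, Bowtie2 2.3.4.1, cutadapt 4.1, SAMtools 1.15.1, FastQC 0.11.9 and build mm10 are listed without role or setting in the submitters' processing notes. Whether cut sites were shifted is not given in the sources. The deposited fold is a ratio of peak to background within its own library, and the score, −log10 q and −log10 p of a deposited peak also refer to that library alone. Total depth is not given.

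Summits of 1 interval were joined with the values of the strongest. On chromosomes 1 to 19, X and Y each library kept as many intervals as the shortest list held, strongest first by −log10 q; the kept intervals were merged at 1 bp overlap. The code for merging, calling and the rule was checked on simulated intervals that were either present or absent. They had no strengths and no rank cut, so the choice of cut was not checked. Genes are the nearest protein-coding gene bodies within 50 kb (RefSeq, GRCm38.p6; exons were not used), and promoters are RefSeq windows, held for 17492 of 21887 protein-coding genes. Python 3.11.15, numpy 2.4.6, pandas 2.3.3, scipy 1.17.1 and matplotlib 3.10.9 were used. List lengths were compared by an exact permutation test; the regions themselves carry no test.

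Named genes were the 20 strongest regions by weakest WT stimulated rank with a gene within 50 kb, genes with 3 or more regions, list genes with a region, the regions nearest each threshold and the 5 strongest with no peak in the other 9 libraries. A region that this rule names is not reported here. Members and lists were chosen with earlier results of these data known. Alternatives changed the list length, ranking, overlap, merging, KO control limit and gene distance, and left out each library. Motif shares at summits were not run, since no mm10 genome sequence was used here.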

Additional observations from a re-analysis of the deposited data

Results flagged for a closer look

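Peaks were listed outside the calls that defined the regions. In the full list of KO stimulated replicate 3, 228 of the 368 WT-only regions held a weaker deposited peak, against 21 to 70 in the 6 control libraries, 36 in KO stimulated replicate 2 and 0 in KO stimulated replicate 1, where the whole list was used and no weaker peak can exist. The 228 are 62.0% of the WT-only regions, against 56.9% of all regions that replicate 3 did not call, a share near the background of that library. The list of replicate 3 had 54303 intervals, that of replicate 2 had 42543 and that of replicate 1 was the shortest, and the part of list length in the difference was not tested.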

How the results depend on the processing

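The number of WT-only regions depended on list length and on 1 library. It was 174 with lists of 50% of the length used (0 of the 368 shared, since none of them ranked that high in all 3 WT stimulated libraries), 1291 with all deposited intervals (114 of the 368 shared), 1408 with every interval at a −log10 q of at least 10 (252 shared) and 598 where a call needed 50% coverage (310 shared). It was 395 with summit windows (367 shared), and 358 or 374 with 0 or any number of KO control calls. Ranking by fold returned the same 368 regions, so this setting was not a separate check. Leaving out 1 library gave 370 to 871, the highest without KO stimulated replicate 3. The share with a KO stimulated peak was 100% with the shortened lists, 0% by construction with all intervals, 81.8% with 50% coverage, and 13.0 to 69.2% leaving out 1 library (13.0% without KO stimulated replicate 3). The share near a gene end was 2.94% with all intervals and 3.77 to 6.07% leaving out 1 library. KO-only regions numbered 24 with all intervals and 4 at the common −log10 q, and 196 to 473 leaving out 1 library (473, 355 and 315 without KO stimulated replicates 3, 2 and 1). Under the 5 other list, ranking, merging and call settings together, 90 of the 368 (24.5%) remained, and the ranking by fold removed none. Counting any deposited peak, left-out libraries held 19.4% (KO stimulated replicate 2) and 83.9% (replicate 3) of the regions, 93.6%, 92.8% and 98.5% in WT stimulated replicates 1 to 3, 14.0%, 8.09% and 13.8% in KO control, and 8.92%, 17.2% and 23.6% in WT control libraries. The causes were not tested. With gene bodies within 20 kb, 269 regions in place of 311 had a gene. Restricting the regions gained in both genotypes to the same ranks, chosen after seeing the data, gave 4.72% near a gene end. The planned motif shares at summits were not run. The one test over samples, of list length, gave with the replicate block the same difference of −14251 and p = 0.25 by exact permutation (the smallest that 3 pairs allow), against 0.1 unpaired. Same-numbered KO and WT stimulated libraries did not deviate together in their calls (correlations of 0.006, 0.00751 and −0.0172 for numbers 1, 2 and 3). With 3 libraries per group these values cannot decide whether the numbers pair the samples, and the labels do not say. Leaving out 1 library moved the list length difference between −19410 (without KO stimulated replicate 3) and −9813 (without KO stimulated replicate 1). The regions themselves carry no test, so no block applies to them.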
